A study of Mus musculus with 18 samples.

Results

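The probe sets described here are those of mouse microRNA genes on a whole-transcript expression array. A probe set was taken when the platform annotation gave it exactly 1 gene symbol, that symbol was a microRNA or let-7 gene and not a microRNA host gene, and its mean log2 value over all 18 arrays was 6 or more. Of the 35556 probe sets of the array, 298 named a single microRNA gene and 112 of these, from 112 different genes, met the level. The other 186 lay below it, and 61 further probe sets that named a microRNA gene together with other genes were not taken. The members were thus chosen by their mean level over all arrays, and the levels below are descriptions without a test. The last probe sets left out were Mir155, Mir106b and Mir693, at 5.969, 5.97 and 5.998, and the first ones taken were Mir378a, Mir331 and Mir32, at 6.017, 6.019 and 6.045.

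The study compared soleus and quadriceps muscle of mice with and without EglN1, the prolyl hydroxylase (also called PHD2) that marks hypoxia-inducible factor for breakdown, and separately the hearts of mice given an EglN inhibitor. All mice had been back-crossed to C57BL/6. Each of the 6 groups had 3 arrays, and the labels call the arrays biological replicates. The mice called KO here carried a floxed EglN1 gene and a Cre recombinase active in skeletal muscle, and the WT mice carried the same Cre with an unmodified EglN1. Both received tamoxifen for 3 days before the tissue was taken, to switch on the Cre, so the tamoxifen and the Cre are shared by KO and WT. The Cre acts in muscle fibres, and the other cells of the tissue keep the gene. The heart samples came from mice with unmodified EglN1 that received FG-4497, an EglN inhibitor, at 50 mg per kg by intraperitoneal injection, or vehicle. The labels do not give the ages of the animals.

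A microRNA gene is transcribed as a long primary transcript, often within or beside another gene. The nuclear enzyme Drosha cuts out a hairpin, Dicer trims the hairpin to the short mature strand, and an Argonaute protein carries that strand to messenger RNAs that pair with its seed, the stretch from base 2 to base 8. Striated muscle is known for high levels of miR-1 and miR-133, and skeletal muscle for miR-206. The best known microRNA target of hypoxia-inducible factor is miR-210. The cDNA here was primed at random on total RNA, and the probes read the region of the precursor. The values are therefore signal of the precursor region, background included, and hold no measurement of the mature strand.

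RefSeq entries (GRCm38.p6) gave a mature sequence for 97 of the 112 genes, and 20 seeds were shared by 2 or more of them. Of the 97 genes, 38 shared a seed with another member. The 5 genes that passed between genotypes carry 3 of the shared seeds, and other genes with these 3 seeds did not pass. The mature strands with these 3 seeds are shown with the seed in capitals. The Mir181 genes shared the seed ACAUUCA.
miR-181a-5p: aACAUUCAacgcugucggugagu
miR-181b-5p: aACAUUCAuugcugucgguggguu
miR-181c-5p: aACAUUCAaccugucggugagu
miR-181d-5p: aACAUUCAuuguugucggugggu
The Mir30 genes with an entry shared GUAAACA.
miR-30a-5p: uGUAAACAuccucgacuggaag
miR-30c-5p: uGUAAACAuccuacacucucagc
miR-30e-5p: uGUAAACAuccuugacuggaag
The Mir15/16 genes shared AGCAGCA.
miR-15a-5p: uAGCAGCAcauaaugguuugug
miR-16-5p: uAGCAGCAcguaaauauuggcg
miR-195a-5p: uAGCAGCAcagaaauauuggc
miR-497a-5p: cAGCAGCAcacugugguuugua

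The array reads the precursor region and not these short strands. The hairpins of the 5 genes that differed between KO and WT are therefore shown next, with the main mature arm in capitals. Mir181a-2 lay at chr2:38852735-38852810 on the plus strand and Mir181b-2 at chr2:38853830-38853918 on the same strand. Mir30c-2 lay at chr1:23291701-23291784 on the plus strand, Mir30e at chr4:120772606-120772697 on the minus strand and Mir16-1 at chr14:61631880-61631972 on the minus strand.
Mir181a-2: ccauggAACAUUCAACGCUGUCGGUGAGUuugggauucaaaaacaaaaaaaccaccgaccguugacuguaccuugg
Mir181b-2: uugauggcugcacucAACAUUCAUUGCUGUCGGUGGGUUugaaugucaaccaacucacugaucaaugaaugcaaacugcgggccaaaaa
Mir30c-2: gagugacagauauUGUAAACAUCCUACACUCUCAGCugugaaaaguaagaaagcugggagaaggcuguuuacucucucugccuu
Mir30e: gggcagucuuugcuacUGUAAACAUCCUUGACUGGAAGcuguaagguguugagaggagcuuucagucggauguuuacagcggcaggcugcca
Mir16-1: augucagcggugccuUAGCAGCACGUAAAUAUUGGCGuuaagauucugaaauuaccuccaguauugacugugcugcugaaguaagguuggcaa
Aligned end to end, the hairpins of Mir181a-2 and Mir181b-2 were identical at 52.6% of the alignment positions and those of Mir30c-2 and Mir30e at 58.9%, although each pair carries 1 seed.

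The array medians lay between 6.68 and 6.81, arrays of 1 group correlated at r from 0.986 to 0.995 over all probe sets, and no pair of arrays held identical values. Egln1 read 11.03, 11.07 and 11.12 in KO soleus against 11.29, 11.22 and 11.31 in WT soleus, and 10.87, 10.67 and 10.92 in KO quadriceps against 10.94, 10.99 and 10.95 in WT quadriceps. Egln1 was lower on every KO array of each muscle, by -0.20 and -0.14, and neither difference passed (adjusted p = 0.461 and 0.495). Slow fibre markers averaged 13.32 to 13.41 on the soleus arrays and 6.68 to 8.84 on the quadriceps arrays, and heart muscle markers 10.76 or more on the heart arrays against 7.16 to 7.85 in skeletal muscle. Myl7, a marker of atrial muscle, had means of 6.48 and 6.50 in the heart groups, close to its 6.23 to 6.41 in the skeletal muscle groups. In soleus the fast myosin gene Myh4 read 10.90, 13.31 and 8.99 on the WT arrays and 12.53, 12.48 and 12.73 on the KO arrays. In quadriceps the slow myosin gene Myh7 read 6.60, 9.39 and 6.86 in KO and 8.60, 7.08 and 6.78 in WT.

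The microRNA probe sets were dim as a group. Over all 18 arrays their means ran from 6.02 to 9.68 with a median of 7.02, against 7.98 for the 15637 probe sets that named 1 gene and met the same level. Of the 112, 54 (48.2%) had a mean under 7 and 15 had a mean of 8 or more. Only 37.6% of the microRNA probe sets reached the level, against 71.8% of all probe sets that named 1 gene. The median SD within a group was 0.14 for the microRNA genes and 0.11 for all probe sets tested. A value of one probe set says nothing about another gene, because each has its own probes. The 5 highest means belonged to Mir568 (9.68), Mir692-1 (9.45), Mir346 (9.26), Mir505 (8.89) and Mir598 (8.80). Mir346 differed by no more than 0.16 between any 2 of the 6 group means.

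Most members differed little between the group means. The members were dimmer than all probe sets tested (median 7.02 against 7.98), and the ranges given here were not matched for level. The median range between the highest and the lowest of the 6 group means was 0.38, against 0.47 for all probe sets tested, and a range of 1 or more was found for 12 members (10.7%) against 18.5% of all. Those 12 were Mir133a-2 (3.10), Mir1a-1 (2.94), Mir181b-2 (2.01), Mir133a-1 (1.72), Mir1a-2 (1.71), Mir181a-2 (1.58), Mir32 (1.36), Mir365-1 (1.28), Mir680-2 (1.12), Mir30c-2 (1.06), Mir365-2 (1.04) and Mir16-1 (1.03). The highest group was a heart group for 60 members, a soleus group for 32 and a quadriceps group for 20. No share over all probe sets stands beside these counts, so they do not set microRNA genes apart from other genes. Heart and skeletal muscle came from separate experiments, so tissue and experiment cannot be told apart, and no test was made between them. Fewer cells of a type and less RNA per cell cannot be told apart in these whole tissues either.

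The first question was which microRNA genes changed when EglN1 was lost from skeletal muscle. In soleus 3 members rose, Mir181b-2, Mir16-1 and Mir30c-2, and none fell. Of all 15637 probe sets, 0.102% rose and 0.0512% fell in this comparison. In quadriceps 4 members rose, Mir181b-2, Mir181a-2, Mir30c-2 and Mir30e, and none fell, where 0.275% of all probe sets rose and 0.365% fell. The rises were between 0.44 and 1.00 on the log2 scale. Tests throughout are limma's moderated tests with Benjamini-Hochberg adjustment over all 15637 probe sets, and a difference passed at an adjusted p under 0.05.

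Mir181b-2, one of the genes for miR-181b, read 7.75, 7.63 and 7.20 on the KO soleus arrays and 6.46, 6.42 and 6.75 on the WT soleus arrays. All 3 KO arrays lay above all 3 WT arrays. The difference was 0.98 (SE 0.13, a 1.98-fold higher level, limma adjusted p = 0.00757). In quadriceps it read 8.67, 8.50 and 8.46 in KO and 7.36, 7.68 and 7.60 in WT, again without overlap, a difference of 1.00 (SE 0.13, limma adjusted p = 0.00338). The soleus call was lost without KO replicate 1, KO replicate 2 or WT replicate 1 (limma adjusted p = 0.0519, 0.0504 and 0.0562), and it was 0.072 without the 2 arrays that lay farthest from their groups in fibre markers. The quadriceps call held under each of the 17 alternatives run, with adjusted p from 0.0011 to 0.0252.

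Mir181a-2 lies beside Mir181b-2 in 1 cluster and codes for miR-181a. It read 7.78, 7.56 and 7.41 in KO quadriceps and 6.78, 6.59 and 6.61 in WT quadriceps, with the lowest KO array well above the highest WT array. The difference was 0.92 (SE 0.11, limma adjusted p = 0.00246) and was called under all 16 alternatives run. In KO soleus it read 6.76, 6.69 and 6.30, beside 6.04, 6.09 and 6.20 in WT soleus. The soleus groups did not overlap, but the difference of 0.47 did not pass (limma adjusted p = 0.183), and it passed only without KO replicate 3 (0.0407). The other Mir181 cluster, Mir181c and Mir181d, carries the same seed and read between 7.46 and 8.03 on every muscle array. Its KO minus WT differences lay between -0.04 and 0.02 in both muscles. Mir181a-1 and Mir181b-1, which make the same mature strands from another locus, had means of 4.49 and 5.61 and were not members.

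Mir30c-2, a gene for miR-30c, read 7.39, 7.31 and 7.42 in KO soleus and 6.68, 6.78 and 6.71 in WT soleus, 2 narrow groups far apart. The difference was 0.65 (SE 0.07, limma adjusted p = 0.00127). In quadriceps it read 6.89, 6.83 and 6.86 in KO and 6.18, 6.43 and 6.34 in WT, also without overlap, a difference of 0.54 (SE 0.07, limma adjusted p = 0.00297). Both calls held in all 16 alternatives run for each. Mir30e read 6.78, 6.82 and 6.76 in KO quadriceps and 6.46, 6.22 and 6.37 in WT quadriceps, a difference of 0.44 (SE 0.08, limma adjusted p = 0.0332). That call was lost in 9 of 16 alternatives, with adjusted p up to 0.13. In soleus Mir30e read 7.23, 7.13 and 7.30 in KO and 6.77, 6.87 and 6.99 in WT, and the difference of 0.34 did not pass (limma adjusted p = 0.153).

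The remaining Mir30 members differed from each other. Mir30a, the neighbour of Mir30c-2 on chromosome 1, had differences of 0.33 in soleus and 0.26 in quadriceps, and neither passed (limma adjusted p = 0.429 and 0.369). Mir30d had differences of 0.08 and 0.01. Mir30b and Mir30c-1 had means of 5.66 and 5.78 and were not members.

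Mir16-1, which makes miR-16, a repressor of cell cycle and survival genes, rose in soleus. It read 7.09, 6.83 and 6.77 in KO soleus against 6.18, 6.00 and 6.31 in WT soleus, without overlap. The difference was 0.73 (SE 0.10, limma adjusted p = 0.00757), and it no longer passed without KO replicate 1 (0.0519). In quadriceps the arrays read 6.18, 6.09 and 6.08 in KO and 5.98, 5.81 and 5.81 in WT, a difference of 0.25 that did not pass (limma adjusted p = 0.347). The test of whether the soleus effect differed from the quadriceps effect did not pass either, with a difference of 0.48 (limma adjusted p = 0.537). Mir15a, its partner in the same cluster, read 9.38, 8.89 and 8.41 in KO soleus and 8.17, 8.20 and 8.66 in WT soleus. Those groups overlapped, with a spread of 0.48 (SD, n = 3) in KO soleus, and the differences of 0.55 in soleus and 0.43 in quadriceps did not pass (limma adjusted p = 0.503 and 0.43). The Mir195a and Mir497 cluster, which has the same seed, had differences of 0.07 and 0.07 in soleus and 0.17 and -0.11 in quadriceps.

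**Figure D1:**
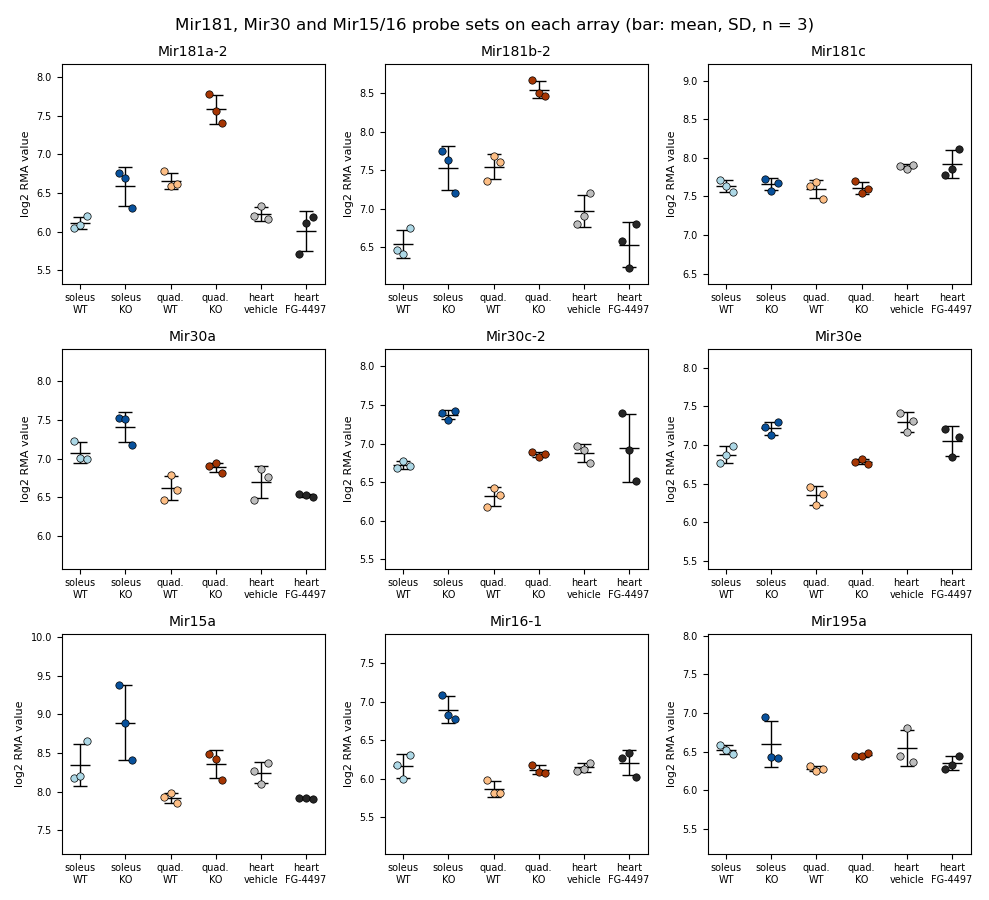
Log2 values of 9 family members on each of the 18 arrays (points), by group, with the mean and SD of 3 arrays (bars); every panel spans the same number of log2 units around its own middle. Mir181b-2 and Mir30c-2 sat higher on the KO arrays than on the WT arrays in soleus and in quadriceps, and the soleus KO values of Mir16-1 (6.77 to 7.09) were above those of every other group.

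**Figure D2:**
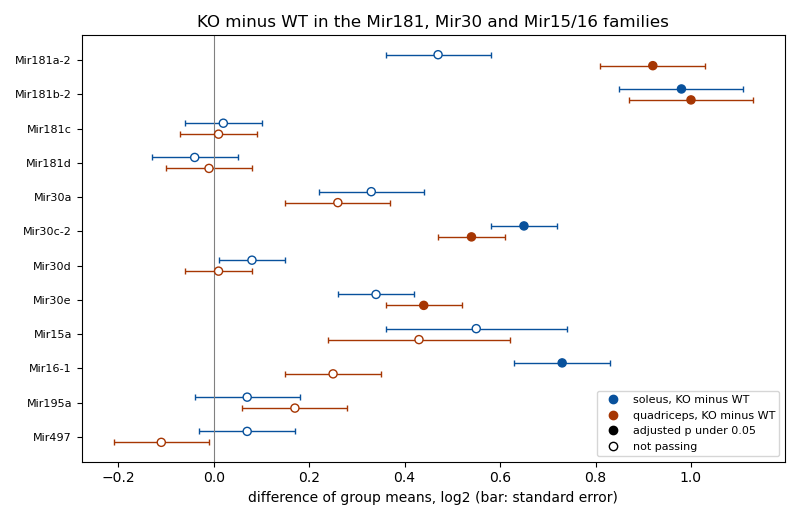
KO minus WT differences on the log2 scale, with standard errors, for the 12 measured members of the Mir181, Mir30 and Mir15/16 families in soleus and quadriceps; filled points passed at an adjusted p under 0.05. Mir181c, Mir181d, Mir30d, Mir195a and Mir497 lay near 0 in both muscles, between -0.11 and 0.17.

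Averaged over both muscles, 5 members were higher in KO and none was lower, against 0.313% and 0.409% of all probe sets. They were Mir30c-2 (0.59, limma adjusted p = 0.000191), Mir181b-2 (0.99, 0.000559), Mir181a-2 (0.70, 0.00182), Mir16-1 (0.49, 0.0068) and Mir30e (0.39, 0.00855). All 5 calls held under the 21 or 22 alternatives run for each of them. This average uses the same arrays as the single-muscle comparisons and adds no independent sample. No member passed the test of a difference between the muscles in the genotype effect, and 0% of all probe sets did. At an unadjusted p under 0.05, 11 members and 969 probe sets were found in that test. The lowest adjusted p among the members was that of Mir365-1, whose KO minus WT difference was 0.44 in soleus and -0.24 in quadriceps (limma adjusted p = 0.269 for the difference of 0.69).

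Over all 112 members the genotypes lay close together. The median KO minus WT difference was 0.0371 in soleus and -0.0147 in quadriceps, beside -0.000639 and -0.0145 over all probe sets tested. The arrays of KO and WT did not overlap for 19 members in soleus (15 higher and 4 lower, 17%, against 12% of all with 6.13% higher and 5.88% lower) and for 20 in quadriceps (12 higher and 8 lower, 17.9%, against 16.1% of all with 5.8% higher and 10.3% lower). The largest differences among those that did not overlap and did not pass were, beside Mir181a-2, Mir365-1 in soleus (0.44, limma adjusted p = 0.142) and Mir15a in quadriceps (0.43). The largest negative ones were Mir194-1 in soleus (-0.22, limma adjusted p = 0.602), with Mir107, Mir551b and Mir92b between -0.14 and -0.12, and Mir365-1 (-0.24), Mir27a (-0.23), Mir188 (-0.22), Mir409 (-0.21) and Mir124a-2 (-0.18) in quadriceps. Mir210, the hypoxia microRNA, read 8.51, 8.05 and 8.18 in KO soleus and 8.30, 8.07 and 8.12 in WT soleus. Its groups overlapped, and the differences were 0.08 in both muscles (limma adjusted p = 0.953 and 0.877). Among the 186 microRNA probe sets below the level, none passed between KO and WT in either muscle when all probe sets of the table were tested.

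Host and neighbouring genes were read beside the members that rose. Nr6a1, an orphan nuclear receptor gene in whose locus the Mir181a-2 and Mir181b-2 pair lies, differed by -0.04 in soleus and 0.04 in quadriceps (limma adjusted p = 0.976 and 0.924). Mir181a-2hg, the host gene of this pair, was not among the tested probe sets. Nfyc, a subunit of the CCAAT-binding factor NF-Y and host of Mir30e, had 2 probe sets with differences of 0.06 and 0.23 in quadriceps, neither passing (limma adjusted p = 0.82 and 0.48). Dleu2, the long noncoding RNA that holds Mir15a and Mir16-1, read 2.66 to 3.23 over the 18 arrays and was not among the tested probe sets. Of the 10 tested genes on either side of each risen member, 20 in all, none was called in the same genotype comparison apart from Mir181a-2 and Mir181b-2 beside each other in quadriceps. Marker lists were read for heart muscle, fibre types, endothelium, smooth muscle and pericyte, fibroblast, leukocyte, erythroid and adipocyte. Of all probe sets, 0.102% rose and 0.0512% fell between KO and WT in soleus, and 0.275% and 0.365% in quadriceps. With calls that rare, the marker lists had 0 members called in either muscle. Their part in the result was not tested.

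The genes for the proteins that make and use microRNAs did not pass between genotypes. Of 22 genes tested for processing, export and silencing, among them Dicer1 and the Argonaute genes, none passed in KO against WT in either muscle. Calls were rare over all probe sets too, with 0.102% higher and 0.0512% lower in soleus and 0.275% and 0.365% in quadriceps. The differences of the 22 genes ran from -0.23 to 0.11 over both muscles, and the lowest limma adjusted p was 0.235.

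The second question was how soleus, a muscle rich in slow fibres, differs from quadriceps, a mainly fast one. In WT mice 20 members were higher and 9 lower in soleus, beside 20.5% and 22.7% of all probe sets. In KO mice 23 were higher and 6 lower, beside 20.3% and 19.1% of all. The arrays of the 2 muscles did not overlap for 29.5% of members in WT and 33% in KO, against 50.9% and 45.1% of all. Of the 29 members called in WT, 21 (72.4%) were also called in KO, where 29 were called as well (72.4%), and each of the 21 went the same way, 17 higher and 4 lower in soleus. The WT and KO comparisons use different animals. The slow fibre marker level was 13.32 to 13.41 on the soleus arrays and 6.68 to 8.84 on the quadriceps arrays. As a covariate it therefore takes up the muscle itself and cannot separate fibre content from muscle. With this covariate, all 29 WT calls and all 29 KO calls were lost. In every other alternative run for them, 19 of the WT calls and 21 of the KO calls held, and the losses of the other 10 and 8 are given with those members.

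The Mir181a-2 and Mir181b-2 pair was lower in soleus in both genotypes. From the arrays given above, Mir181b-2 averaged 6.54 in WT soleus and 7.55 in WT quadriceps (SE of the difference 0.12, limma adjusted p = 1.85e-05), and it differed by -1.02 in KO (1.94e-05). Mir181a-2 differed by -0.55 in WT (limma adjusted p = 0.000879), and in KO it averaged 6.58 in soleus and 7.58 in quadriceps (6.64e-06). Nr6a1, in whose locus the pair lies, was lower in soleus by -0.42 and -0.50, and the host gene Mir181a-2hg was not tested. The mean of KO soleus and the mean of WT quadriceps were 7.52 and 7.55 for Mir181b-2 and 6.58 and 6.66 for Mir181a-2.

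The Mir30 members went the other way. All 4 were higher in soleus in both genotypes, by 0.33 to 0.53 in WT and 0.39 to 0.52 in KO. Mir30e differed by 0.53 in WT (SE 0.07, limma adjusted p = 6.45e-05) and Mir30c-2 by 0.52 in KO (SE 0.06, limma adjusted p = 2.86e-05). The 2 probe sets of Nfyc, the host of Mir30e, differed by -0.03 and 0.31 in WT (limma adjusted p = 0.687 and 0.0252). In KO they differed by 0.01 and 0.11 (0.895 and 0.437). Mir16-1 was higher in soleus by 0.30 in WT (limma adjusted p = 0.016) and by 0.78 in KO (1.49e-05). Without Soleus WT replicate 1 or 3, or Quadriceps WT replicate 2 or 3, the WT difference of Mir16-1 had an adjusted p from 0.0554 to 0.0899. Mir15a differed by 0.42 in WT and did not pass (limma adjusted p = 0.0671), and was higher by 0.54 in KO (0.0255). The KO call of Mir15a failed in 9 of 18 settings tried, at limma adjusted p-values of 0.0529 to 0.114 when the fit went without Soleus KO replicate 1 or 2 or Quadriceps KO replicate 2 or 3.

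The Mir23a, Mir27a and Mir24-2 genes form 1 cluster, and all 3 were higher in soleus. Mir27a read 7.80, 7.57 and 7.66 in WT soleus and 6.99, 7.03 and 7.09 in WT quadriceps, without overlap. It differed by 0.64 in WT (SE 0.09, limma adjusted p = 0.000117) and by 0.84 in KO (1.33e-05). Mir23a differed by 0.59 and 0.38 and Mir24-2 by 0.42 and 0.50 in WT and KO. None of the 3 passed between genotypes, with differences from -0.23 to 0.07.

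Mir107, which lies in the pantothenate kinase gene Pank1, read 6.69, 6.76 and 6.80 in WT soleus and 6.11, 6.05 and 6.40 in WT quadriceps. It was higher in soleus by 0.56 in WT (SE 0.08, limma adjusted p = 5.38e-05) and 0.51 in KO, and Pank1 by 1.66 and 1.38. Pank2, which holds Mir103-2, was higher in soleus by 0.17 in WT and 0.23 in KO (limma adjusted p = 0.0212 and 0.00443). Mir103-2, with the same seed as Mir107, was higher by 0.35 in WT (limma adjusted p = 0.019) and differed by 0.16 in KO without passing (0.279). Its WT call failed in 6 of 17 settings tried, at limma adjusted p-values of 0.0539 to 0.106 when the fit went without Soleus WT replicate 1 or 3 or Quadriceps WT replicate 1 or 3. Other members higher in soleus in both genotypes were Mirlet7d (0.42 and 0.39), Mir99b (0.34 and 0.34), Mir212 (0.24 and 0.44), Mir7-1 (0.28 and 0.50), Mir680-1 (0.42 and 0.48), Mir680-2 (0.98 and 0.88) and Mir1a-1 (0.75 and 0.61). The KO call of Mir1a-1 failed in 8 of 18 settings tried, at limma adjusted p-values of 0.0641 to 0.11 when the fit went without Soleus KO replicate 2 or 3 or Quadriceps KO replicate 1 or 2. Mir504, lower by -0.39 and -0.21, completed the 4 members that were lower in soleus in both genotypes with Mir181a-2, Mir181b-2 and Mir365-2. Its KO call failed in 12 of 18 settings tried, at limma adjusted p-values of 0.0678 to 0.209 when the fit went without Soleus KO replicate 1 or 2 or Quadriceps KO replicate 1 or 2. Mir378a and Mir32 did not pass between the muscles, but their hosts did. Mir378a differed by 0.09 in WT and 0.11 in KO, and its host Ppargc1b by 0.29 and 0.32 (limma adjusted p = 0.011 and 0.00689). Mir32 differed by -0.35 in WT and 0.27 in KO, and its host Tmem245 by 0.23 and 0.17 (limma adjusted p = 0.00512 and 0.0365).

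Of the 16 members called in 1 genotype alone, none passed the test of a difference between genotypes. Mir134, Mir668, Mir485 and Mir409 lie in 1 cluster of the imprinted microRNA region on chromosome 12, and 3 of them were lower in WT soleus, by -0.43 for Mir409 (SE 0.08, limma adjusted p = 0.000917), -0.26 for Mir134 and -0.23 for Mir668. In KO mice they differed by -0.11, -0.12 and -0.11 without passing. The WT call of Mir134 failed in 7 of 18 settings tried, at limma adjusted p-values of 0.054 to 0.0681 when the fit went without Soleus WT replicate 2 or 3 or Quadriceps WT replicate 1 or 3. The 11 other members of the region, linked to that cluster by gaps of at most 100 kb, differed by -0.10 to 0.12 in WT and none was called.

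The remaining WT calls were small and depended on the setting. Mir128-1 was lower (-0.18) and Mir128-2 higher (0.19) in WT soleus, and both give the same mature miR-128. The Mir128-1 call failed in 11 of 17 settings tried, at limma adjusted p-values of 0.0957 to 0.141 when the fit went without Soleus WT replicate 1 or 3 or Quadriceps WT replicate 1 or 3. The Mir128-2 call was lost in 13 of 17, with an adjusted p from 0.0776 to 0.159 without any 1 of the Soleus WT arrays or Quadriceps WT replicate 1 or 3. Mir338 (-0.21) was lost in 8 of 18, with an adjusted p from 0.055 to 0.162 without Soleus WT replicate 2 or any 1 of the Quadriceps WT arrays. Mir692-1 (0.22) was lost in 12 of 18, and leaving out any 1 of the 6 WT arrays gave an adjusted p from 0.0508 to 0.204.

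Called in KO alone were Mir15a, described above, and 7 further members. Mir193a (-0.47) and Mir1839 (-0.59) were lower in soleus, and both calls were lost under the fibre covariate alone. Mir133a-2 (0.60) failed in 7 of 18 settings tried, at limma adjusted p-values of 0.0617 to 0.099 when the fit went without Soleus KO replicate 3 or Quadriceps KO replicate 1 or 2. Mir219a-1 (0.32) was lost in 6, with 0.0504 to 0.0957 without Soleus KO replicate 1 or Quadriceps KO replicate 1 or 2. Mir345 (0.22) was lost in 6, with 0.0511 to 0.0913 without Soleus KO replicate 1 or Quadriceps KO replicate 1 or 3. Mirlet7e (0.23) was lost in 5, with 0.0592 to 0.0851 without Soleus KO replicate 1 or 3 or Quadriceps KO replicate 3. Mir185 (0.20) was lost in 13, with 0.0565 to 0.199 without Soleus KO replicate 1 or 2 or any 1 of the Quadriceps KO arrays.

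**Figure D3:**
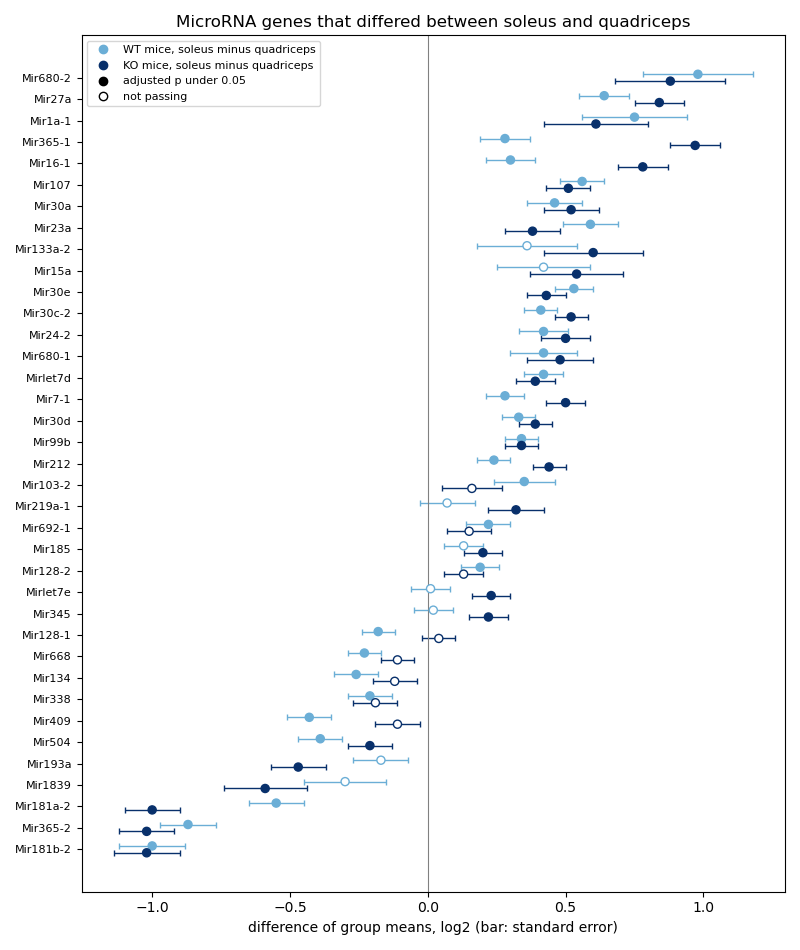
Soleus minus quadriceps on the log2 scale, with standard errors, for the 37 members that passed in WT or KO mice; filled points passed at an adjusted p under 0.05. Mir365-2 and the Mir181a-2 and Mir181b-2 pair stand at the lower end, from -0.55 to -1.02, and Mir365-1, with the same mature strand as Mir365-2, is on the other side.

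Of the microRNA genes whose mature strand is made from several loci, 7 sequences were shared by 2 or more members, and the copies did not always go together. Mir365-1 and Mir365-2 both give miR-365-3p, and their hairpins, with that arm in capitals, were identical at 65.2% of the alignment positions. Mir365-1 lay at chr16:13453840-13453926 and Mir365-2 at chr11:79726400-79726511, both on the plus strand.
miR-365-3p: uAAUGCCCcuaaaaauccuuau
Mir365-1: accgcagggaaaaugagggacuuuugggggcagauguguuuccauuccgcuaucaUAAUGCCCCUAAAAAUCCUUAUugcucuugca
Mir365-2: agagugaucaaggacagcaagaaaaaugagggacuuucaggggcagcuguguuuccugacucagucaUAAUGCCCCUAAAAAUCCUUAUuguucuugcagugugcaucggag
Mir365-1 read 6.80, 6.86 and 6.65 in WT soleus, 6.59, 6.48 and 6.41 in WT quadriceps, 7.13, 7.08 and 7.45 in KO soleus and 6.36, 6.10 and 6.29 in KO quadriceps. Its soleus arrays lay above its quadriceps arrays in both genotypes. It was higher in soleus by 0.28 in WT (limma adjusted p = 0.0249) and 0.97 in KO (2.68e-06). The WT call was lost without Quadriceps WT replicate 2 or 3 or Soleus WT replicate 1 or 2 (limma adjusted p from 0.0587 to 0.105). Mir365-2 read 6.39, 6.46 and 6.22 in WT soleus, 7.28, 7.11 and 7.28 in WT quadriceps, 6.61, 6.27 and 6.25 in KO soleus and 7.48, 7.16 and 7.55 in KO quadriceps. Here every quadriceps array lay above every soleus array. It was lower in soleus by -0.87 in WT (SE 0.10, limma adjusted p = 2.03e-05) and -1.02 in KO (5.6e-06).

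The Mir680 genes give 1 mature strand from 3 loci. Mir680-2 read 8.71, 9.00 and 8.48 in WT soleus and 7.87, 7.69 and 7.68 in WT quadriceps, without overlap, and 8.79, 8.64 and 8.39 against 7.87, 8.22 and 7.09 in KO. It was higher in soleus by 0.98 in WT (SE 0.20, limma adjusted p = 0.00136) and 0.88 in KO (0.00328). Mir680-1 was higher by 0.42 and 0.48, and the WT call was lost without Soleus WT replicate 2 (0.29, limma adjusted p = 0.0625). Mir680-3 did not pass, with -0.11 and -0.14. Of the miR-7a genes, Mir7-1 was higher in soleus by 0.28 in WT (limma adjusted p = 0.00465) and 0.50 in KO (6.47e-05), and Mir7-2 differed by -0.04 and -0.02.

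**Figure D4:**
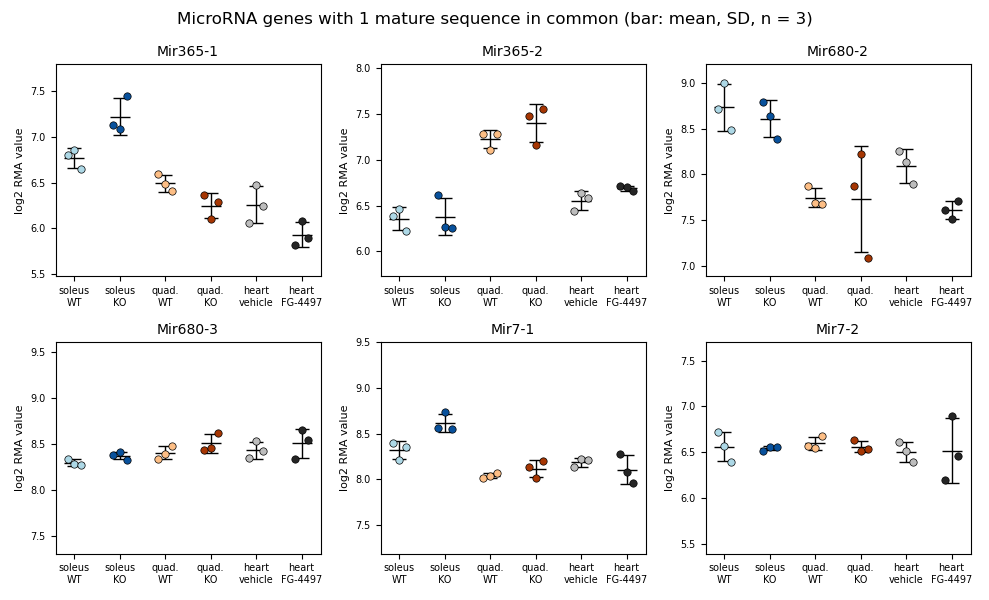
Log2 values on each array, by group, for 3 sets of microRNA genes that give the same mature strand, with the mean and SD of 3 arrays; every panel spans the same number of log2 units. Mir365-1 is higher in soleus and Mir365-2 higher in quadriceps, Mir680-2 is higher in soleus than in quadriceps while Mir680-3 stays between 8.27 and 8.65, and Mir7-1 shows a smaller soleus excess.

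Between WT soleus and WT quadriceps, where 20.5% of all probe sets were higher and 22.7% lower, 5 of 5 slow fibre markers were called. So were 5 of the 6 fast fibre markers, and in KO mice (20.3% and 19.1% of all) 5 of 5 and 4 of 6. All 4 endothelial markers and all 4 markers of smooth muscle and pericytes were called in both genotypes. Of the other lists, WT calls were 2 of 5 for heart muscle, 1 of 4 for fibroblast and 1 of 3 for adipocyte. They were 0 of 4 for leukocyte and 0 of 1 for erythroid. The endothelial list averaged 9.42 to 9.77 on the WT soleus arrays and 8.75 to 8.91 on the WT quadriceps arrays. Their part in the result was not tested. Among the pathway genes, Dicer1 was lower in soleus in both genotypes (-0.52 and -0.39, limma adjusted p = 3.55e-06 and 5.45e-05), and so was 1 probe set of Ago2 (-0.34 and -0.27). A second Ago2 probe set (-0.44), Tut4, Ago1 and Ago3 were also lower in WT soleus, and Xpo5, which exports the hairpin from the nucleus, was higher by 0.17 with Ago4 (0.17) and 2 probe sets of Srsf3 (0.26 and 0.31). In KO soleus Tnrc6c, Ago4 and Srsf3 were higher and Tut4, Tnrc6b, Dis3l2, Ran and Lin28a lower, by 0.15 to 0.24 in size.

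The muscle microRNA genes were read across all groups. Mir1a-1 and Mir133a-2 lie in 1 cluster, and Mir1a-2 and Mir133a-1 in another. Mir133a-2 read 8.53, 9.13 and 8.54 in WT soleus, 8.71, 8.22 and 8.21 in WT quadriceps and 6.42, 6.26 and 6.45 in vehicle heart. Mir1a-1 read 8.17, 8.77 and 8.09 in WT soleus, 7.83, 7.48 and 7.46 in WT quadriceps and 5.59, 5.80 and 6.42 in vehicle heart. Every heart array of the 2 genes lay below every skeletal muscle array. Mir133a-1 behaved likewise, with 6.47 to 7.11 on the heart arrays and 7.97 to 8.87 in muscle. For Mir1a-2 the vehicle heart arrays (6.34 to 6.54) overlapped the quadriceps arrays (6.30 to 7.47). None of the 5 muscle microRNA members passed between KO and WT in either muscle, with differences from -0.36 to 0.16. Mir1a-1 was higher in WT soleus than in WT quadriceps (0.75, SE 0.19, limma adjusted p = 0.0062), with an adjusted p of 0.0541 without the 2 arrays farthest from their groups in fibre markers. Mir206 and Mir499 lay below the level of choice, with means of 3.99 and 5.35. When every probe set of the table was tested, Mir206 was higher in soleus by 3.13 in WT (SE 0.31, limma adjusted p = 2.84e-05) and by 1.59 in KO (0.00357), and Mir499, which lies in a slow myosin gene, by 1.20 and 1.28. Mir206 read 6.61, 6.50 and 5.76 in WT soleus and 4.01, 4.43 and 5.52 in KO soleus, without overlap, and the difference of -1.64 did not pass (limma adjusted p = 0.173). Its quadriceps arrays read 3.02 to 3.20. Mir3107, a gene for miR-486 at the Ank1 locus, had means of 7.50 to 7.69 in all 6 groups. Ank1 itself did not stay level. It averaged 7.95 in WT and 7.83 in KO soleus, and 8.92 in WT and 8.77 in KO quadriceps. In the heart it averaged 7.51 with vehicle and 7.60 with FG-4497.

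The third question was whether an EglN inhibitor altered microRNA genes in the heart. Mir133a-2 fell and no member rose, beside 0.358% of all probe sets lower and 1.07% higher. Mir133a-2 read 5.72, 5.74 and 5.66 in FG-4497 hearts and 6.42, 6.26 and 6.45 in vehicle hearts. The groups did not overlap and the spread within each was small. The difference was -0.67 (SE 0.08, limma adjusted p = 0.00336). All 3 treated values lay under 6, the level used to choose members, so the probe set was dim there. When every probe set of the table was tested, the adjusted p was 0.0752.

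Its cluster partner Mir1a-1 differed by -0.54 without passing (limma adjusted p = 0.411). Mir1a-2 read 5.77, 6.02 and 5.33 in FG-4497 hearts and 6.34, 6.41 and 6.54 in vehicle hearts, without overlap. The difference of -0.72 did not pass (SE 0.15, limma adjusted p = 0.058), and it passed without FG-4497 replicate 2 (-0.88, 0.0284). Mir133a-1, its partner, differed by -0.17 (limma adjusted p = 0.888). Mir99a averaged 6.33 ± 0.18 (SD, n = 3) in FG-4497 hearts and 6.84 ± 0.14 in vehicle hearts, without overlap, a difference of -0.51 that did not pass (limma adjusted p = 0.068). Mir680-2 differed by -0.49 and did not pass (limma adjusted p = 0.0708), with 0.0426 when vehicle replicate 3 was left out.

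**Figure D5:**
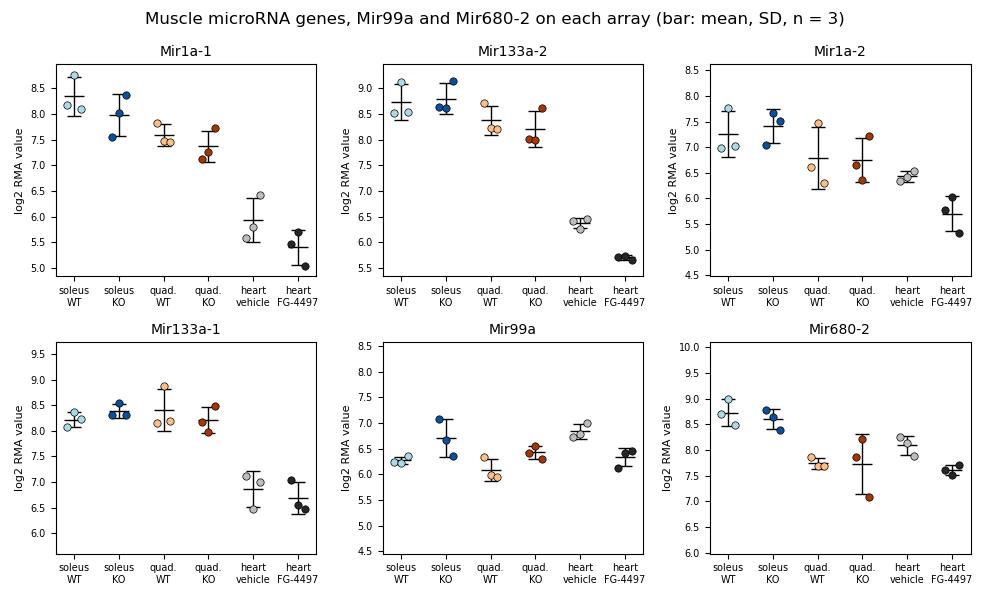
Log2 values on each array, by group, for 4 muscle microRNA genes, Mir99a and Mir680-2, with the mean and SD of 3 arrays; every panel spans the same number of log2 units. Mir133a-2 and Mir1a-1 are lower on the 6 heart arrays than on the 12 skeletal muscle arrays, and the FG-4497 values of Mir133a-2 (5.66 to 5.74) are below its vehicle values (6.26 to 6.45).

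More members were lower than higher in treated hearts. The difference was above 0 for 36 of 112 (32.1%), against 49.2% of all probe sets tested, with a median of -0.0476 against -0.00195. That shift is small beside the arrays: the member median was 6.98 to 7.07 on the FG-4497 arrays and 6.96 to 7.16 on the vehicle arrays. The arrays did not overlap for 5 members that were higher and 12 that were lower, 15.2% in all. Over all probe sets the share was 14.9%, with 8.06% higher and 6.81% lower. The 5 higher ones that did not overlap were Mir697 (0.22), Mir296 (0.17), Mir365-2 (0.14), Mir331 (0.13) and Mir497 (0.11), and none passed. The genes that rose in KO muscle gave Mir181b-2 -0.43 (limma adjusted p = 0.301), Mir181a-2 -0.23, Mir30e -0.25, Mir30c-2 0.07 and Mir16-1 0.06 in the heart. Mir210 read 8.24, 8.44 and 8.35 in treated and 8.31, 8.43 and 8.33 in vehicle hearts, a difference of -0.01. The erythroid marker Alas2 was higher in treated hearts (0.96, limma adjusted p = 0.0128), and its part in these values was not tested. Of all probe sets 1.07% were higher and 0.358% lower, and none of the 22 pathway genes passed. The differences of those genes ran from -0.10 to 0.24.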

How the data were processed

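Total RNA of 18 mouse tissue samples was reverse transcribed with random primers and read on Affymetrix whole-transcript arrays. The deposited values are log2 levels that the authors obtained by RMA, a method that subtracts background, equalizes the distributions of the arrays and combines probes into a probe set. The submitters' processing notes name RMA without a version. The values were used as they stood, and the number of arrays, 3 per group, limits the precision.

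Gene names came from the platform annotation, in which 21789 probe sets had 1 symbol, 1621 several and 12146 none. All 15637 probe sets with 1 symbol and a mean of 6 or more over 18 arrays were fitted with limma 3.58.1 in R 4.3.3. The 12 muscle arrays had 4 group means and the animal as a random block (consensus correlation 0.161). The 6 heart arrays had a fit of their own. Adjusted p-values are Benjamini-Hochberg over all 15637. With 3 against 3 arrays an exact permutation test cannot go below 0.1, so calls rest on the variance limma pools over probe sets. The fit was tested on simulated data.

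Each number in the sample descriptions occurs on 1 soleus and 1 quadriceps array, and it was taken as the animal, an assumption. Deviations from the group means of these 6 pairs correlated at r from -0.015 to 0.352. Pairs made by the replicate numbers of the titles correlated at r from -0.286 to 0.091 for KO with WT arrays. For treated with vehicle hearts r ran from -0.139 to 0.184. These ranges overlap that of the animal pairs, so they cannot decide whether the title numbers pair the arrays.

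The members and lists were chosen with earlier results of these data known. Named were every member called in a comparison, the measured Mir181, Mir30, Mir15/16 and muscle microRNA genes, Mir210, up to 5 rises and 5 falls per comparison whose arrays did not overlap, the 5 highest means, the 3 members on each side of the level of 6, pathway genes called, host genes of named members and Egln1. Alternatives changed the block, the arrays fitted, the filter, the probe set per gene, the normalization, the array weights, the prior and single arrays. Slow fibre marker level as a covariate, and leaving out the 2 arrays farthest from their groups in fibre markers (Soleus WT replicate 2 and Quadriceps KO replicate 2), were added after seeing the data. RefSeq sequences and coordinates are those of GRCm38.p6, and 15 members had no entry.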

Additional observations from a re-analysis of the deposited data

How the results depend on the processing

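With 3 arrays per group only sizeable differences pass, dim probe sets carry little signal over background, and the arrays do not measure mature microRNA. Leaving out 1 array at a time gave 1 to 4 called members in soleus KO against WT, 3 to 4 in quadriceps, 5 to 7 in the average, 0 to 0 for the difference between muscles, 22 to 26 between WT muscles, 23 to 32 between KO muscles and 1 to 2 in heart. The soleus count was 1 without Soleus KO replicate 1, and the heart count was 2 without FG-4497 replicate 2 or vehicle replicate 3. With only probe sets of mean 7 or more, 1 member was called in soleus, 1 in quadriceps, 1 in the average, 16 between WT muscles, 19 between KO muscles and 2 in heart; members under 7, Mir30c-2 among them, are left out by construction. With only the arrays of the groups compared, 1 member was called in soleus, and Mir181b-2 and Mir16-1 each had an adjusted p of 0.123. In heart, 2 members were called with array weights or with 1 probe set per gene, 4 with a trended and robust prior, and 0 (limma, with 12 members at an unadjusted p under 0.05 in the filtered fit) when every probe set was tested. The replicate block, the title number as a fixed term, left 3, 4 and 5 calls in soleus, quadriceps and the average and gave 2 in heart, where Mir99a passed (0.0471). A mean of 7 as the level of choice gave 58 members.

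With the slow fibre marker level as a covariate, 1 member was called between WT muscles and 0 between KO muscles; that level differs between soleus and quadriceps, so the term takes up the muscle itself. Under it 9 differences turned sign, none passing: between KO muscles Mir1839 (0.54), Mir185 (-0.15), Mir193a (0.17), Mir345 (-0.33), Mir680-2 (-0.45) and Mirlet7e (-0.17), and between WT muscles Mir680-1 (-0.07), Mir680-2 (-0.44) and Mir692-1 (-0.04). The same covariate left 3 calls in soleus, 3 in quadriceps and 5 in the average. Repeating the quantile normalization moved no group mean of a member by more than 0.07.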
